A study of Mus musculus with 10 samples.

Results

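The genes described here were 35 genes of the interferon response and of antigen presentation, taken from a fixed list of gene symbols and read in 3 sets: 22 interferon-stimulated genes, 8 genes of major histocompatibility complex (MHC) class I presentation and 5 genes of MHC class II presentation. Each of the 35 matched 1 of the 39179 gene identifiers in the files, and 33 of them were among the 12690 genes with enough reads to be tested (21 interferon-stimulated, 8 class I and 4 class II). RNA was measured in the tibialis anterior (TA), a fast-twitch muscle at the front of the shin, of 4 Control and 6 LLC mice. The LLC mice had received Lewis Lung Carcinoma cells, a mouse lung tumor line, under the skin of both flanks, and the Control mice received PBS at the same sites. The sample labels name the strain as C57BL/6J, the age at injection as 10 weeks and the tumor development as 23 days, with 0 days for Control; the series text instead names male C57BL/10 mice aged 8 weeks, studied at 22 days, and the difference could not be resolved here. The tumors grew from a transplanted cell line away from the muscle, no genotype or drug differed between the groups, and some LLC mice of the wider study died before the end, so the LLC samples came from survivors. The comparison asked whether the interferon and antigen presentation programs of the muscle differed between cachectic and tumor-free mice.

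Interferons are secreted proteins that bind receptors on most cells and, through JAK kinases and STAT transcription factors, switch on interferon-stimulated genes. Type I interferons act mainly through a complex that contains STAT2 and IRF9 and binds the interferon-stimulated response element (ISRE), whereas interferon gamma acts mainly at the gamma-activated site (GAS). MHC class I molecules are made of a heavy chain and beta-2 microglobulin, are present on most nucleated cells and display peptides from inside the cell, loaded with the help of the TAP transporter and tapasin; NLRC5 is their transactivator. MHC class II molecules display peptides taken up from outside, are made mainly by macrophages, dendritic cells and B cells, and depend on the transactivator CIITA; resting muscle fibres are known for little MHC of either class.

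To show what the promoters of these genes hold, the 250 bases before the start site were read for members with a motif match, in order of adjusted p in the LLC comparison, and the first 6 are printed 5′ to 3′ from RefSeq on GRCm38.p6. The matches in capitals are the ISRE core (GAAANNGAA, here on the other strand) in Ifit3, Gbp3 and Ifit1, the GAS letters TTCNNNGAA in Ifit2, and CTGATTGG, the Y box of class II promoters, in H2-Aa and H2-Eb1; adjacent matches run together as 1 stretch of capitals in Gbp3 and Ifit1. The windows are chr19:34583279-34583528 (plus strand) for Ifit3, chr3:142559794-142560043 (plus strand, the first of 2 windows listed) for Gbp3, chr19:34550444-34550693 (plus strand, the first of 2 windows listed) for Ifit2, chr17:34287824-34288073 (minus strand) for H2-Aa, chr19:34640639-34640888 (plus strand) for Ifit1 and chr17:34305617-34305866 (plus strand) for H2-Eb1.
Ifit3: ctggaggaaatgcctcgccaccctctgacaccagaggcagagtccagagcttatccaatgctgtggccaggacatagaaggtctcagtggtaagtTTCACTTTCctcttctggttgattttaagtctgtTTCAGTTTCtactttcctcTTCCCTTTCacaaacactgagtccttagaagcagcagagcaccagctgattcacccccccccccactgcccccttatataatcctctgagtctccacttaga
Gbp3: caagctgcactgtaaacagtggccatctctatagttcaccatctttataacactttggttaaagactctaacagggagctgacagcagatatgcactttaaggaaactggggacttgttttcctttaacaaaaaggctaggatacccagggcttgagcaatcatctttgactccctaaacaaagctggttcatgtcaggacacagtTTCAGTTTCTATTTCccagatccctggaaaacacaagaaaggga
Ifit2: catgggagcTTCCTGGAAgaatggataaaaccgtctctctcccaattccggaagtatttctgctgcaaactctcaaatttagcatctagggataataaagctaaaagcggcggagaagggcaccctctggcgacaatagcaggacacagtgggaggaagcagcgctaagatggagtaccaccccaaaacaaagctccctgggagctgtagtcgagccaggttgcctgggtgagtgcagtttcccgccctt
H2-Aa: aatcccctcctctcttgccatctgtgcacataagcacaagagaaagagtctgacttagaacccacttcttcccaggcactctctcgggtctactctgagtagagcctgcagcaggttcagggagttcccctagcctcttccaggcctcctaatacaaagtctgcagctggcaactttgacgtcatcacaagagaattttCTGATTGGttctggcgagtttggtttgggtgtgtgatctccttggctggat
Ifit1: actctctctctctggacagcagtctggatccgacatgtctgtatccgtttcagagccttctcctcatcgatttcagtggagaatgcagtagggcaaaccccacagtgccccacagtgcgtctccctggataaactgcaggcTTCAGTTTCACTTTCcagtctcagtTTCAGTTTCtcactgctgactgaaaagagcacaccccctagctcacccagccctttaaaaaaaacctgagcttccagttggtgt
H2-Eb1: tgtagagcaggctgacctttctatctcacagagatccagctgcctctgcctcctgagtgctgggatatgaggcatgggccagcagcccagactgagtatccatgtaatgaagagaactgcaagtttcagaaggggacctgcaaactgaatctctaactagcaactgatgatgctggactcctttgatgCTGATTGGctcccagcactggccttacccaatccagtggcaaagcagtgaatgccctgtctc

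The promoter table held 27 of the 35 members, with windows of 300 bases that run from 250 before to 50 after each start site and were searched on both strands. The ISRE core was present in 12 of 19 interferon-stimulated members (Bst2, Gbp2, Gbp3, Gbp7, Ifit1, Ifit3, Igtp, Irgm1, Isg15, Oas1a, Rsad2 and Stat2), in 2 of 6 class I members (B2m and H2-T23) and in 0 of 2 class II members, while 8.56% of all 32851 promoters held it. The GAS letters were found in 7 of 27 members (Bst2, Gbp7, Ifit2, Igtp, Irf1, Irf8 and Oas1a) and in 8.30% of all promoters, and in Bst2 a GAS match overlapped an ISRE match. The Y box letters were found in Irf8, in 4 of 6 class I members (H2-D1, H2-K1, H2-T23 and Tap1) and in both class II members with a window, against 4.10% of all promoters. Ifit3 and Ifit1 each held 3 ISRE matches, beginning 155, 121 and 102 bases before the start in Ifit3 and 109, 103 and 84 bases before it in Ifit1. Gbp3 held matches at 44 and 38 bases, Ifit2 a GAS match at 241 bases, and the Y box lay 51 bases before the start of H2-Aa and 62 bases before that of H2-Eb1. These matches describe the letters in the windows and are not measurements of binding.

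Total counts were 16693209 to 21303084 per library, so 3 counts, taken as the floor of detection, corresponded to 0.141 to 0.180 CPM, a count expressed relative to the size of its library. Levels below are CPM scaled by TMM factors, and such floors cover counting error only. The mitochondrially encoded share of counts was 22.0% to 27.9% in LLC, below every Control library (28.4% to 30.7%), and lowest in LLC 1 and LLC 5 (22.9%); its part in the results was not tested beyond leaving those genes out before scaling. LLC 1 also had the highest TMM factor (1.17, against 0.930 to 1.07 in the other libraries). Skeletal muscle markers summed to 108850 to 115777 CPM in Control and to 70607 to 121993 CPM in LLC, and 0 of 7 passed the threshold, so the markers of the labelled tissue were abundant in every library. Markers of other cell types differed: 7 of 7 tested neutrophil markers were higher and 6 of 6 fibroblast markers lower in LLC. Over all tested genes 1.65% passed the threshold as higher and 3.99% as lower. The 9 neutrophil markers summed to 0.689 to 2.27 CPM in Control and to 32.9 to 71.2 in LLC. Those tested passed the read filter largely through LLC, so their count was largely set by that filter. None of 12 T and NK cell markers had enough reads to be tested (0.438 to 0.691 CPM summed in Control, 0.206 to 0.605 in LLC). In these bulk samples fewer cells of a type and less RNA per cell cannot be told apart.

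Across the 3 sets, 0 of 33 tested members were higher in LLC muscle and 2, Ifit3 and Gbp3, were lower by edgeR. No member was higher at an unadjusted p of 0.05 or less, and DESeq2 and limma voom also called 0 members higher. A gene was counted when its adjusted p was at most 0.05 and its change at least 1.5-fold. Over all tested genes 5.63% passed this threshold, 1.65% higher and 3.99% lower in LLC, so the share of members that passed was near that of all tested genes. The median log2 fold change (LLC over Control) was -0.12 over the 21 interferon-stimulated genes (-0.00 without Control 3), 0.03 over the 8 class I genes and -0.37 over the 4 class II genes (-0.60 without LLC 5), beside 0.00 over all tested genes, of which 5% were below -0.80 and 5% above 0.66. The 95% interval of the fold change lay within 1.5-fold in either direction for 11 of 21 interferon-stimulated genes, 7 of 8 class I genes and 0 of 4 class II genes, against 49.4% of all tested genes. A change under 1.5-fold was therefore better bounded for class I than for class II.

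**Figure D1:**
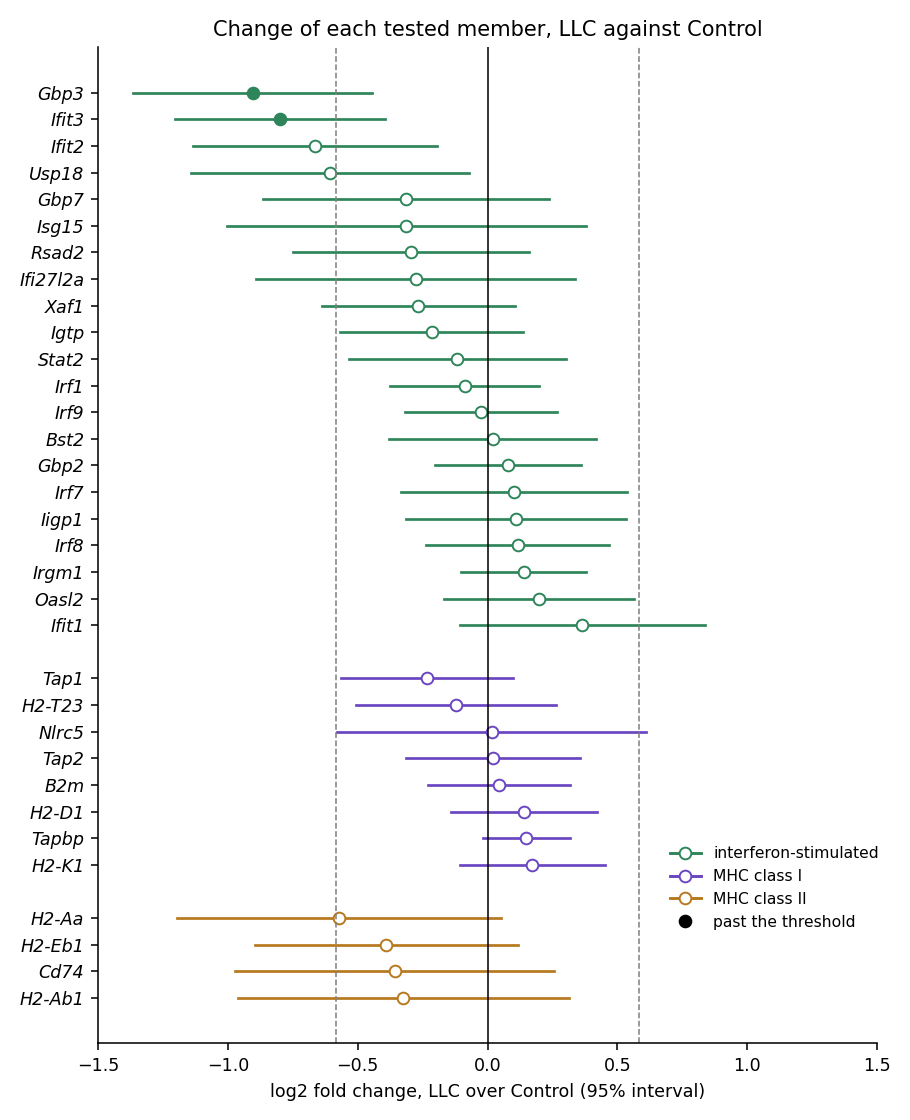
Log2 fold change (LLC over Control, x axis) of each of the 33 tested members, with its 95% interval; colors mark the 3 sets, filled points passed the threshold and dashed lines mark 1.5-fold. Gbp3 and Ifit3 at the top are the filled points, at -0.90 and -0.80, and all 4 class II genes lie left of 0.

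Among the antiviral effectors, the 3 Ifit genes, which lie in 1 cluster on chromosome 19 with Ifit3b and Ifit1bl1, gave unlike values. Ifit3 (chr19:34583531-34588731, plus strand, GRCm38) was at 2.12, 3.01, 2.65 and 2.63 CPM in the 4 Control samples and at 1.14, 1.45 and 1.97 CPM (lowest, median and highest) in the 6 LLC samples. Every LLC sample was below every Control sample, the lowest being LLC 5. The mean fell from 2.60 ± 0.367 (SD, n = 4) to 1.50 ± 0.341 CPM (SD, n = 6), to 0.574 times the Control level (log2 fold change -0.80, SE 0.19, adjusted p = 0.0257). Its reads numbered 22 to 61 per library, and the call was lost when Control 2, Control 3, Control 4, LLC 5 or LLC 6 was left out, with the log2 fold change between -0.89 and -0.72 over all such fits. Without LLC 1 it stood at -0.74 with an adjusted p of 0.0214.

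Ifit2 (chr19:34550694-34576419, plus strand) was at 2.28, 1.83, 2.11 and 1.75 CPM in Control and at 0.644, 1.37 and 1.52 CPM (lowest, median and highest) in LLC. The groups did not overlap, with LLC 5 again the lowest, but the change did not pass the threshold (log2 fold change -0.67, SE 0.22, adjusted p = 0.0857). It passed when LLC 1 was left out (-0.72, adjusted p = 0.0455). Ifit1 (chr19:34640871-34650009, plus strand) was at 1.59, 2.12, 1.51 and 0.876 CPM in Control and at 1.52, 2.03 and 2.26 CPM in LLC. Its groups overlapped, 5 LLC samples lay above 3 of the 4 Control samples, and it had the highest log2 fold change of the interferon-stimulated set (0.37, SE 0.22, adjusted p = 0.279). The ratio of Ifit3 to Ifit1 CPM, looked at after these values were seen and not tested, was 1.33 to 3.00 in Control and 0.590 to 1.15 in LLC. Both genes hold 3 ISRE core matches in the promoter windows printed above. Ifit3b, a near-identical neighbor of Ifit3 with which it may share reads, was at 3.80 ± 0.205 CPM in Control and 2.52 ± 1.27 in LLC (log2 fold change -0.60, SE 0.34, adjusted p = 0.260), and with its counts added to those of Ifit3 the change was -0.68 with an adjusted p of 0.125, an alternative chosen after seeing the data.

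The other 8 effectors gave 0 genes past the threshold. Usp18, a protease that removes ISG15 from proteins and dampens interferon signaling, was at 1.59, 1.68, 2.54 and 2.03 CPM in Control and at 0.874, 1.21 and 1.85 CPM in LLC (log2 fold change -0.61, SE 0.24, adjusted p = 0.142). Its groups overlapped, with LLC 1 the lowest. Isg15, the ubiquitin-like modifier itself, had a log2 fold change of -0.31, Rsad2 (viperin, an antiviral enzyme) of -0.30, Ifi27l2a of -0.28, Xaf1 of -0.27, Bst2 (tetherin, which holds budding virus at the cell surface) of 0.02 and Oasl2 of 0.20, with adjusted p of 0.316 to 0.950. Bst2 was the most abundant effector per length in Control, at 5.76 RPKM, the CPM per kilobase of exon, next to Ifi27l2a at 5.55 RPKM. Oas1a, which makes the second messenger that activates RNase L, had too few reads for the fit and was at 0.265, 0.296, 0.324 and 0.548 CPM in Control and at 0.0559, 0.429 and 0.637 CPM in LLC; a two-sided exact permutation test gave p = 0.667, where 0.00952 was the smallest value it can give. Over the 10 tested effectors 1 was lower, 7 log2 fold changes were negative and the median was -0.29.

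The 5 transcription factor genes of the pathway stayed within narrow bounds, and 0 passed the threshold or had an unadjusted p of 0.05 or less. Irf1, which mediates much of the interferon gamma response, had a log2 fold change of -0.09 (95% interval -0.37 to 0.20), Irf7, the amplifier of type I interferon production, of 0.10 (-0.33 to 0.54) and Irf8, a factor of myeloid cells, of 0.12 (-0.24 to 0.47). Irf9 and Stat2, whose products belong to the ISRE-binding complex, stood at -0.03 (-0.32 to 0.27) and -0.12 (-0.53 to 0.30). Irf9 shares genome sequence on the same strand with Rnf31, and Irf1 and Irf7 each overlap an antisense gene (Gm17334 and Phrf1), so reads of these partners may not be fully separated. All 5 intervals lay inside 1.5-fold.

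The interferon-inducible GTPases comprised 3 guanylate-binding proteins (Gbp2, Gbp3 and Gbp7) and 3 immunity-related GTPases (Igtp, Irgm1 and Iigp1), families that attack the vacuoles of intracellular microbes. Gbp3 (chr3:142560026-142573209, plus strand) was at 3.23, 4.15, 3.41 and 3.07 CPM in Control and at 1.23, 1.89 and 2.61 CPM (lowest, median and highest) in LLC. All 6 LLC samples were below all 4 Control samples, and LLC 5 and LLC 6 were lowest. The mean fell from 3.46 ± 0.477 to 1.85 ± 0.549 CPM, to 0.534 times the Control level (log2 fold change -0.90, SE 0.21, adjusted p = 0.0264). The call was lost on leaving out Control 1, Control 2, Control 3, Control 4 or LLC 6, with the log2 fold change between -1.02 and -0.81, and it held without LLC 1 (-0.90, adjusted p = 0.0184).

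Gbp2 and Gbp7, which lie on either side of Gbp3 on chromosome 3, did not pass. Gbp2 (chr3:142620602-142638008, plus strand) was at 5.03, 4.74, 5.46 and 4.44 CPM in Control and at 4.47, 4.92 and 6.25 CPM in LLC, and the groups overlapped (log2 fold change 0.08, 95% interval -0.20 to 0.36). Gbp7 (chr3:142530342-142550149, plus strand, overlapped on its strand by Gm43802) was at 5.75 to 6.72 CPM in Control but spread from 2.73 to 7.30 CPM in LLC, where LLC 5, LLC 1 and LLC 2 were low and LLC 3 and LLC 4 above every Control sample (log2 fold change -0.31, SE 0.25, adjusted p = 0.422). The ratio of Gbp3 to Gbp2, also looked at after the values were seen and not tested, was 0.624 to 0.875 in Control and 0.208 to 0.542 in LLC. Irgm1, the interferon-stimulated member with the highest Control CPM, was at 13.3, 14.8, 14.8 and 12.98 CPM in Control and at 12.3, 15.5 and 18.3 CPM in LLC (log2 fold change 0.14, SE 0.11, adjusted p = 0.419). Its groups overlapped. Iigp1 stood at 0.11 and Igtp, which overlaps Irgm2 on the same strand, at -0.22, neither past the threshold.

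Over the 21 tested interferon-stimulated members 13 log2 fold changes were negative and 8 positive. At an unadjusted p of at most 0.05 there were 4 genes, all lower in LLC (Ifit3, Gbp3, Ifit2 and Usp18). Every LLC sample was below every Control sample in 3 members (Ifit2, Ifit3 and Gbp3), beside 9.57% of all tested genes, and above every Control sample in 0 members, beside 6.40% of all tested genes. By sample, the median deviation of the members from the Control mean was -0.38 in LLC 1, -0.18 in LLC 2, -0.15 in LLC 5 and between 0.03 and 0.07 on the log2 scale in LLC 3, LLC 4 and LLC 6. The Control samples lay between -0.09 and 0.09, and Control 3 was above the Control mean in 18 of the 21 members.

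**Figure D2:**
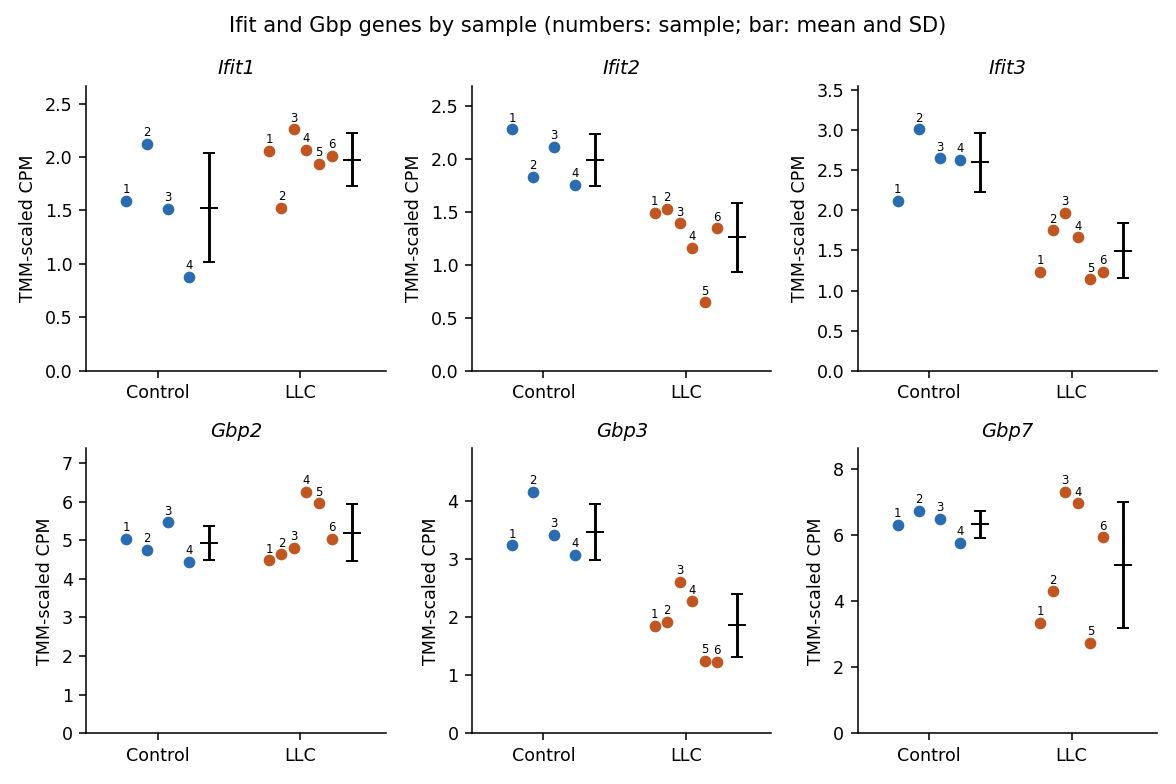
TMM-scaled CPM (y axis) of 3 Ifit genes and 3 Gbp genes in the 4 Control and 6 LLC samples; points are numbered by sample and the bar beside each group gives mean and SD. In Ifit2, Ifit3 and Gbp3 every LLC point lies under every Control point, and in Ifit1, Gbp2 and Gbp7 the groups overlap.

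Of the MHC class I genes, which include the 3 most abundant members, 0 of 8 passed the threshold, also at an unadjusted p of 0.05 or less; DESeq2 and voom called 0 of them as well. Per length, B2m (beta-2 microglobulin) led in Control at 57.5 RPKM, followed by the heavy chains H2-D1 at 19.99 and H2-K1 at 16.01 RPKM. H2-D1 (chr17:35262730-35267499, plus strand) was at 49.997, 48.2, 57.0 and 51.0 CPM in Control and at 45.9, 56.2 and 68.2 CPM in LLC. LLC 1, LLC 5 and LLC 6 were above every Control sample and LLC 2 and LLC 4 below all of them (log2 fold change 0.14, SE 0.13, adjusted p = 0.488). H2-K1 (chr17:33996017-34000347, minus strand), with the largest class I log2 fold change, was at 40.9, 46.2, 53.0 and 48.0 CPM in Control and at 43.9, 53.5 and 61.5 CPM in LLC (0.17, SE 0.13, adjusted p = 0.387). The same 3 samples, LLC 1, LLC 5 and LLC 6, were above every Control sample, as LLC 1 and LLC 6 also were in B2m (log2 fold change 0.05, 95% interval -0.23 to 0.32). The near-identical class I heavy chains may share reads, and the ratio of H2-D1 to H2-K1 was 1.04 to 1.22 in Control and 1.00 to 1.17 in LLC. H2-T23, the nonclassical Qa-1 heavy chain seen by NK cell receptors, stood at -0.12 (-0.51 to 0.26).

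The genes of peptide transport and loading did not pass either. Tapbp (tapasin, chr17:33915899-33929292, plus strand) was at 20.5, 19.4, 21.2 and 19.7 CPM in Control and at 21.34, 22.0 and 24.7 CPM in LLC, so every LLC sample was above every Control sample. The difference was small (log2 fold change 0.15, SE 0.08, adjusted p = 0.223), and Tapbp is overlapped by Zbtb22 on its own strand. Tap1, with the lowest class I log2 fold change, was at 2.22, 2.32, 2.87 and 2.41 CPM in Control and at 1.59, 2.13 and 2.40 CPM in LLC (-0.23, SE 0.15, adjusted p = 0.325). Its groups overlapped. Tap2 stood at 0.02 (-0.31 to 0.35), and Nlrc5, the class I transactivator, at 0.02 with the widest class I interval (-0.58 to 0.61) on 15 to 30 reads per library. Over the 8 genes the median, 0.03, changed sign with upper-quartile scaling (-0.00), so no direction is given for the set.

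**Figure D3:**
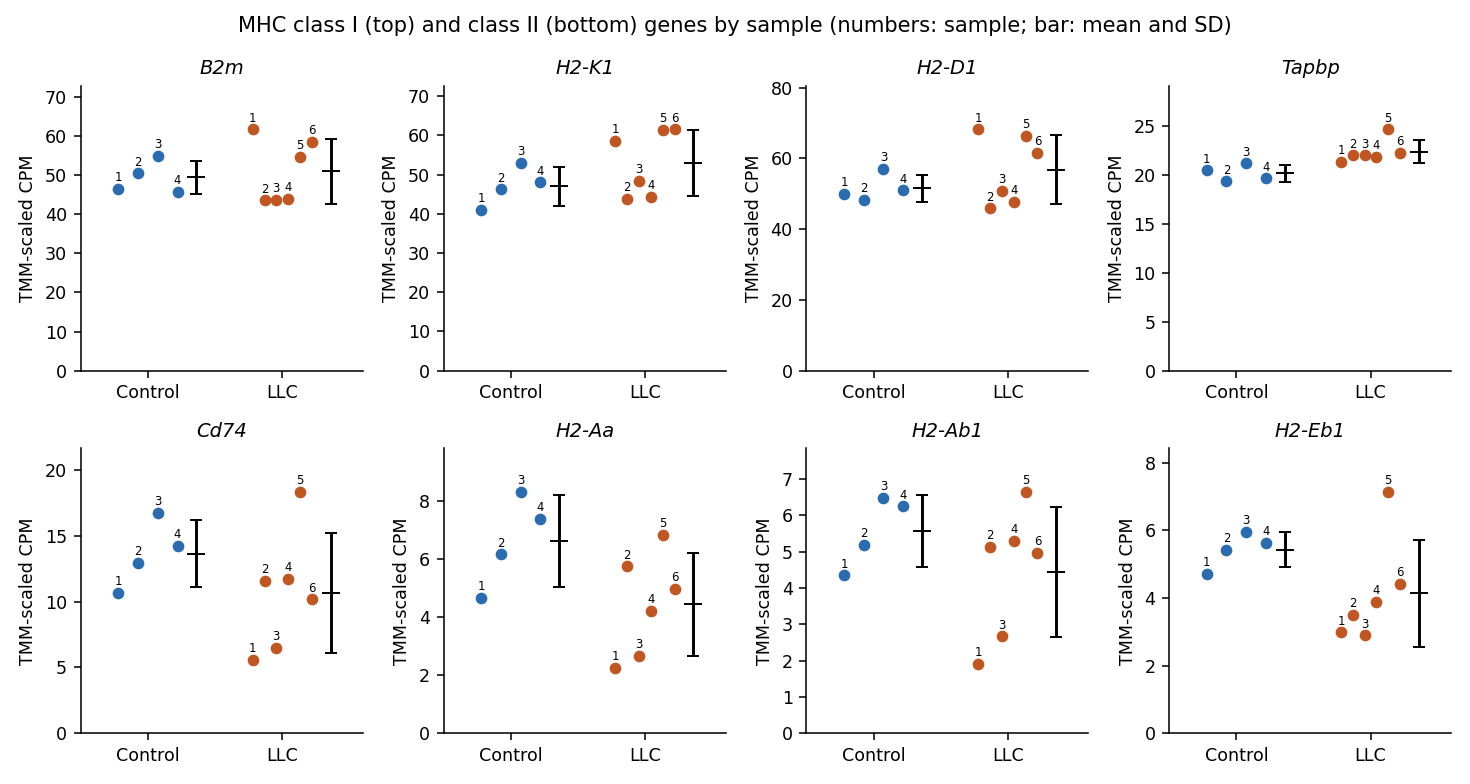
TMM-scaled CPM (y axis) of 4 class I genes (top) and 4 class II genes (bottom) in each Control and LLC sample; points are numbered by sample and bars give mean and SD. Tapbp alone of the 8 has all LLC points above all Control points, and LLC 5 is the highest LLC point in all 4 class II panels.

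All 4 tested class II genes had negative log2 fold changes, beside 49.7% of all tested genes. Of these 4, 0 passed the threshold, also at an unadjusted p of 0.05 or less, and DESeq2 and voom again called 0. H2-Aa (chr17:34282744-34287823, minus strand), with the lowest value, encodes the alpha chain of I-A and was at 4.66, 6.17, 8.33 and 7.40 CPM in Control and at 2.26, 4.60 and 6.84 CPM in LLC (log2 fold change -0.57, SE 0.29, adjusted p = 0.212). LLC 1 and LLC 3 were lowest, and the groups overlapped. Cd74, the invariant chain that escorts class II molecules and the most abundant of the set (8.14 RPKM in Control), was at 10.7, 12.9, 16.8 and 14.2 CPM in Control and at 5.55, 10.9 and 18.3 CPM in LLC (log2 fold change -0.36, SE 0.28, adjusted p = 0.414; -0.21 without LLC 1 and -0.58 without LLC 5). LLC 5 was above every Control sample, and LLC 1, LLC 3 and LLC 6 were below all of them. H2-Ab1, the beta chain of I-A and the gene of the set nearest to no change, was at 4.34, 5.18, 6.49 and 6.24 CPM in Control and at 1.90, 5.06 and 6.64 CPM in LLC (log2 fold change -0.32, SE 0.29, adjusted p = 0.478). Its value was -0.16 without LLC 1 and -0.21 without LLC 3.

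H2-Eb1, the beta chain of I-E, was at 4.71 to 5.95 CPM in Control and at 2.90, 3.69 and 7.14 CPM in LLC (log2 fold change -0.39, SE 0.23, adjusted p = 0.282). Here 5 of 6 LLC samples were below every Control sample and LLC 5 was above all of them. Without LLC 5 the gene passed the threshold (-0.62, adjusted p = 0.0424). H2-Ea-ps, annotated as a polymorphic pseudogene, was at 0 in every library, and whether an I-E molecule was made was not measured. Ciita, the class II transactivator, was near the floor at 0.424, 0.247, 0.324 and 0.274 CPM in Control and at 0.0992, 0.287 and 0.504 CPM in LLC; the same exact permutation test gave p = 0.724. The class II genes moved together by sample, with median deviations from the Control mean of -1.37 in LLC 1 and -1.03 in LLC 3, between -0.33 and -0.19 in LLC 2, LLC 4 and LLC 6, and of 0.33 in LLC 5. Such spread went with a coefficient of variation of 38.1% to 43.0% over the LLC samples, against 9.66% to 23.9% in Control.

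Class II is made by macrophages, dendritic cells and B cells, so their markers are given beside it. Macrophage markers (11 genes, each with reads in some library) summed to 19.1 to 28.7 CPM in Control and to 12.2 to 18.9 CPM in LLC. By edgeR 2 of 9 tested, Mrc1 and Lyve1, were lower in LLC (log2 fold changes -1.05 and -2.53), with a median of -0.60, beside 3.99% lower over all tested genes. DESeq2 and voom each called 4 lower, C1qc and Csf1r being the others, where they called 664 and 722 genes lower in all. Without Mrc1 and Lyve1 the macrophage sums overlapped, at 15.7 to 23.7 CPM in Control and 10.6 to 16.8 CPM in LLC, where LLC 2 and LLC 5 were above Control 1. LLC 3 had the lowest macrophage sum, and LLC 2 and LLC 5 the highest of the LLC samples. The order of the sums differed from that of class II in other samples. LLC 1, with the lowest class II sum (12.7 CPM), had a macrophage sum of 14.3 CPM. That was above LLC 6 (13.6 CPM), whose class II sum was 24.5 CPM. Without Mrc1 and Lyve1 these 2 macrophage sums were 12.8 CPM in LLC 1 and 12.5 CPM in LLC 6. By median deviation from the Control mean, macrophage markers were instead lower in LLC 1 (-0.87) than in LLC 6 (-0.79), and lowest in LLC 3 (-0.98). LLC 5 had the highest class II sum of all samples (39.0 CPM) but a macrophage sum of 18.3 CPM, below every Control sample. Dendritic cell markers summed to 8.69 to 11.7 CPM in Control and 7.09 to 8.97 in LLC with 0 of 4 tested genes past the threshold by edgeR or DESeq2 and 1, Clec10a, lower by voom. The B cell sum, nearly all Ighm, was 56.0 to 105.3 in Control and 13.1 to 48.5 in LLC, where Ighm was lower (log2 fold change -1.45, adjusted p = 0.0321). The part of these cells in the class II values was not tested.

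**Figure D4:**
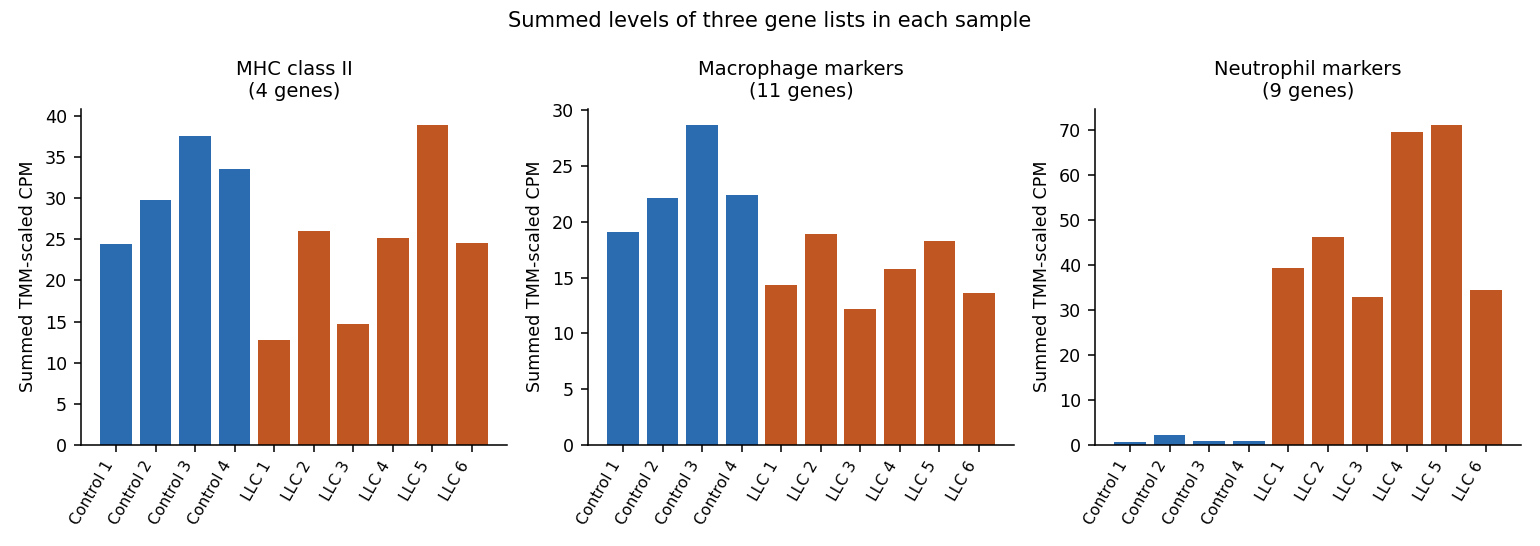
Summed TMM-scaled CPM (y axis) of 4 class II genes, 11 macrophage markers and 9 neutrophil markers in each sample. Class II sums span 24.4 to 37.5 over the Control bars and 12.7 to 39.0 over the LLC bars, macrophage sums are 19.1 to 28.7 in Control and 12.2 to 18.9 in LLC (15.7 to 23.7 and 10.6 to 16.8, with overlap, when Mrc1 and Lyve1 are left out), and neutrophil sums are 0.689 to 2.27 in Control and 32.9 to 71.2 in LLC.

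Upstream of the members, no interferon transcript was counted. Of 21 interferon genes looked for, 17 were in the files (type I, type III and Ifng), all at 0 counts in all 10 libraries. For a gene whose reads map to it alone, this allows up to 0.141 to 0.180 CPM. The similar Ifna genes may share reads, which the counting may have left out, so that bound does not cover them. Of 11 tested receptor and signaling genes 0 passed the threshold, with a median log2 fold change of -0.07; 2 had an unadjusted p of 0.05 or less, and DESeq2 and voom each called 1, Ptpn6. The extremes were Ptpn6, a phosphatase of blood cells (1.45, SE 0.41, adjusted p = 0.0589), and Il10rb, a receptor chain for interferon lambda and interleukin-10 (-0.36, SE 0.14, adjusted p = 0.134). Among 11 tested RNA and DNA sensor genes 1 passed by edgeR, while DESeq2 called 2 higher (Tmem173 and Myd88) and voom 1 higher (Tmem173) and 1 lower (Irf5). Tmem173, which encodes STING, the adaptor of cytosolic DNA sensing, rose from 2.72 ± 0.478 to 6.73 ± 1.26 CPM. It was at 2.12, 2.72, 2.76 and 3.29 CPM in Control and at 4.98, 6.74 and 8.43 CPM in LLC (log2 fold change 1.31, SE 0.18, adjusted p = 0.00112), and every LLC sample was above every Control sample. Irf5, a factor downstream of Toll-like receptors, had the lowest value of the list at 22.9 to 31.2 CPM in Control and 1.65, 8.55 and 16.72 CPM in LLC, without overlap (log2 fold change -1.59, SE 0.48, adjusted p = 0.0722 by edgeR), and Myd88, a Toll-like receptor adaptor, was at 0.64 (SE 0.18, adjusted p = 0.0593 by edgeR).

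Of 34 tested interferon-stimulated genes outside the members, 3 were higher and 2 lower by edgeR, with a median log2 fold change of -0.10. Over all tested genes 1.65% were higher and 3.99% lower. DESeq2 called 3 higher and 3 lower and voom 4 higher and 3 lower. The 3 higher by edgeR were the Ifitm genes, which encode membrane proteins that block viral entry and lie in a cluster on chromosome 7. Ifitm1 was near the floor of detection in Control, at 0.318, 0.346, 0.595 and 0.274 CPM, and at 1.85, 3.04 and 6.44 CPM in LLC (log2 fold change 3.18, SE 0.41, adjusted p = 0.000866). Like the neutrophil markers, Ifitm1 passed the read filter largely through LLC, so that filter favored its count among the higher genes. Ifitm3 was at 15.9 to 19.5 CPM in Control and at 24.6, 28.4 and 40.2 CPM in LLC (0.79, SE 0.14, adjusted p = 0.00727). In both, every LLC sample was above every Control sample. Ifitm2 was at 14.9 to 20.1 CPM in Control and at 19.2, 23.2 and 34.4 CPM in LLC with slight overlap (0.62, SE 0.17, adjusted p = 0.0459), a call lost in 11 of 19 alternatives. Neutrophil markers were higher in LLC as well (0.689 to 2.27 CPM summed in Control, 32.9 to 71.2 in LLC), and their part was not tested.

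The genes that were lower were a chemokine and a nucleic acid binding protein. Cxcl9, which draws T cells and is induced by interferon gamma, was at 1.11, 2.02, 1.68 and 1.59 CPM in Control and at 0.103, 0.449 and 0.605 CPM in LLC (log2 fold change -2.01, SE 0.33, adjusted p = 0.00375). Cxcl9 passed the read filter largely through Control, so that filter favored its count among the lower genes. Ifi203, of the HIN-200 family, was at 10.6, 12.05, 11.6 and 10.7 CPM in Control and at 3.42, 6.10 and 7.17 CPM in LLC (-1.01, SE 0.19, adjusted p = 0.00766), and it overlaps Mndal on the same strand. All LLC samples were below all Control samples in both genes. The extremes among those that did not pass were Oas2 at 0.56 (adjusted p = 0.146) and Cd274, the ligand PD-L1, at -1.003 (SE 0.28, adjusted p = 0.0511).

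Further genes of the GTPase and MHC families gave 0 calls by edgeR, though 1 GTPase, 2 class I and 4 class II genes had an unadjusted p of 0.05 or less; DESeq2 also called 0, and voom called Gbp2b lower and Rfx5, a subunit of the factor that binds class II promoters, higher. Of the other GTPases 5 were tested, with a median of -0.05, from Gbp2b at -0.69 (SE 0.23, adjusted p = 0.0905), another neighbor of Gbp3 on chromosome 3, to Irgm2 at 0.34. Of the other class I genes 18 were tested, with a median of -0.06, from Psmb10, an immunoproteasome subunit, at -0.56 (SE 0.21, adjusted p = 0.119) to Canx (calnexin) at 0.40. H2-Q1 and H2-T3 were listed at 0 in every library, as were H2-Eb2 and H2-Ea-ps of the other class II genes. The 7 tested genes among the other class II genes had a median of 0.17 and ran from H2-DMa, the peptide editor, at -0.75 (SE 0.25, adjusted p = 0.0921) to Ifi30, a lysosomal thiol reductase, at 1.63 (SE 0.67, adjusted p = 0.145). Ifi30 was at 2.19 to 3.62 CPM in Control and at 1.81, 4.78 and 21.4 CPM in LLC, highest in LLC 1, where H2-Aa, H2-Ab1 and Cd74 were lowest.

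**Figure D5:**
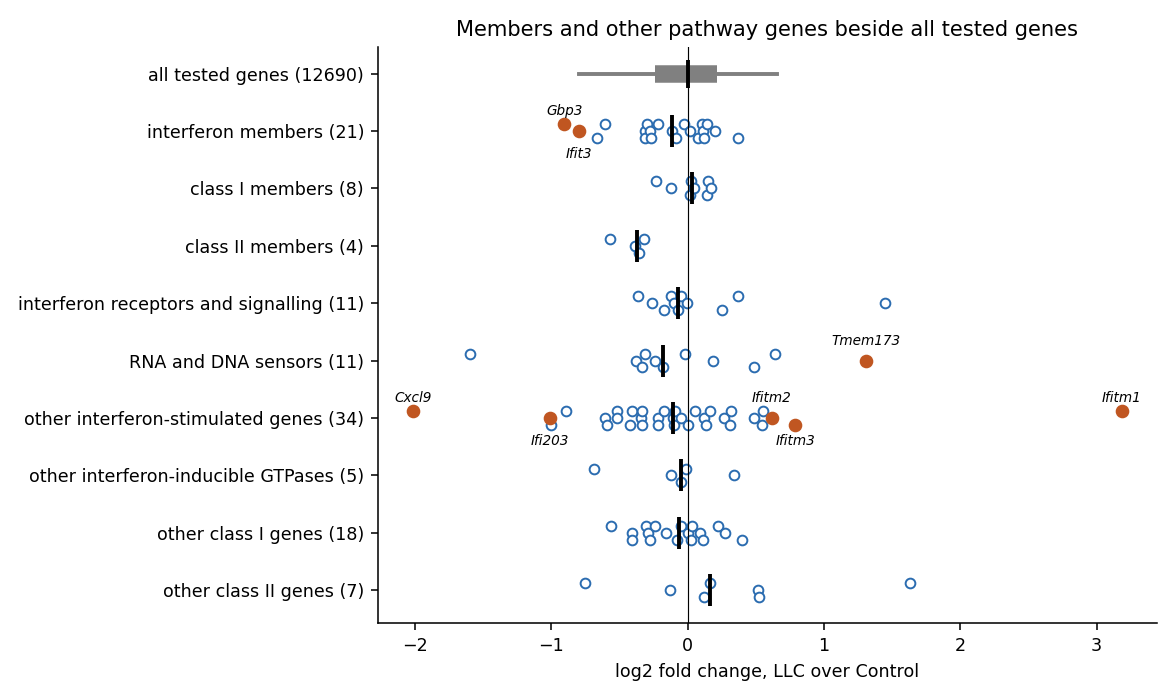
Log2 fold change (LLC over Control, x axis) of each tested gene of the 3 member sets and 6 further pathway lists, with the number tested in brackets; filled points passed the threshold, black bars are medians and the grey box and line give the 25% to 75% and 5% to 95% range of all 12690 tested genes. Most points lie in the range of all genes, with Ifitm1 at 3.18, Tmem173 at 1.31 and Cxcl9 at -2.01 the farthest of those that passed.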

How the data were processed

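RNA-seq libraries of total RNA from TA muscle (stranded kit, paired ends) were made from 4 Control and 6 LLC mice, 1 library each. The authors mapped reads to mm10 with TopHat2 and counted reads per RefSeq gene with HTSeq (default options). Deposited were raw counts per gene, whole numbers without normalization. The files list Ensembl identifiers, so neither the annotation version nor the strand option of the counting is known. Of 39179 identifiers, 37607 were matched to GENCODE M21 on GRCm38, which supplied symbols, coordinates and exonic lengths. Each sample was grouped by its title.

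Genes were kept by filterByExpr (minimum of 10 counts), which left 12690, scaled by TMM and tested with edgeR 4.0.16 (quasi-likelihood test, group only, R 4.3.3); p-values were adjusted over all 12690 genes by the Benjamini-Hochberg method. The study used DESeq2, which was an alternative here (version 1.42.0), as was limma 3.58.1 (voom with sample quality weights). SE was the log2 fold change divided by the square root of the F statistic. RPKM divided CPM by the union of exons in kilobases. The 2 members under the filter were compared by an exact permutation test over 210 assignments. The scripts were tested on simulated data. Replicates differed by more than sampling noise (chi-square per degree of freedom of at least 3.93 in Control pairs and 8.52 in LLC pairs), so each was counted. Promoters were searched in RefSeq windows.

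The members and lists were chosen with earlier results of these data known. All members were named. Those past the threshold, and in each set those with the highest Control CPM, the highest and the lowest log2 fold change, were given in full; of the pathway lists, genes past the threshold and the extremes of the rest. Of the members, 13 overlap another gene, 5 on the same strand and 9 antisense. Alternatives covered scaling, mitochondrially encoded genes, filters, tests, a block for the replicate number, and leaving out samples in turn.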

Additional observations from a re-analysis of the deposited data

Results flagged for a closer look

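In 66 groups of values (33 members in Control and in LLC), 4 held a sample far from the others of its group, where chance gives about 1 in 20, or 3.3. Isg15 was highest in LLC 3 (1.45 CPM, next 0.857; gap over range 0.67), and Irf7 was highest in Control 3 (3.30 CPM, next 2.30; gap over range 0.846). Tapbp was highest in LLC 5 (24.7 CPM, next 22.3; gap over range 0.712), and H2-Eb1 was also highest in LLC 5 (7.14 CPM, next 4.42; gap over range 0.642).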

How the results depend on the processing

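Over 661 recomputed member values 612 kept their direction and their side of the threshold, 15 kept the direction but lost the call, 4 gained one and 30, in 7 members whose log2 fold changes were at most 0.12 in size, changed sign; the causes were not tested. Same-numbered Control and LLC samples are different animals, and their deviations had correlations of -0.03, 0.01, -0.08 and 0.13. Differently numbered pairs were not compared, so whether the numbers mark a shared batch was not tested. With the replicate number as a block on 8 samples, 107 genes in all and 0 interferon-stimulated members passed. In that fit Ifit3 was at -0.66 (adjusted p = 0.186) and Gbp3 at -0.68 (adjusted p = 0.211). The same 8 samples with group only, an alternative chosen after seeing the data, gave 299 genes in all, 0 interferon-stimulated members (Ifit3 at -0.66, adjusted p = 0.123; Gbp3 at -0.68, adjusted p = 0.0764) and 1 class II member, H2-Eb1 (-0.71, adjusted p = 0.0348). The class II median was -0.67 in that fit and -0.69 with the block. Leaving out each sample gave 415 to 966 genes in all (715 with all samples; 415 to 438 without a Control sample), 0 to 3 interferon-stimulated members and 0 to 1 class II members. Class I members remained at 0 throughout. No interferon-stimulated member passed without Control 2, Control 3, Control 4 or LLC 6, and 3 passed without LLC 1. DESeq2 called 1052 genes in all, Ifit3 (adjusted p = 0.00635) and Gbp3 (adjusted p = 0.00278) among them, and voom called Ifit2 too (-0.60, adjusted p = 0.0274). The adjusted p ranged over the alternatives from 0.00635 to 0.186 in Ifit3 and from 0.00278 to 0.211 in Gbp3. In H2-Eb1 the adjusted p ranged from 0.0227 to 0.450, and 2 of 20 alternatives passed the threshold. Of the other pathway genes, Ifitm3, Ifi203 and Cxcl9 lost the call only in the block fit, and Tmem173 and Ifitm1 in none.

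Signs turned with upper-quartile scaling in Bst2 (-0.0090), Tap2 (-0.014) and Nlrc5 (-0.016), with the replicate block in Bst2 (-0.10), Tap2 (-0.015), B2m (-0.049) and Nlrc5 (-0.053), in the same 8 samples with group only in Bst2 (-0.064), Tap2 (-0.030), B2m (-0.035) and Nlrc5 (-0.054), and with voom in Irf9 (0.069), Stat2 (0.043) and B2m (-0.068). With each sample left out, Bst2 ran from -0.037 to 0.15, Irf9 from -0.065 to 0.058, Iigp1 from -0.0010 to 0.24, Tap2 from -0.093 to 0.16, B2m from -0.0085 to 0.10 and Nlrc5 from -0.14 to 0.17. Other scalings moved the median of all genes by -0.03 to 0.01. Low counts limit Ifit1, Ifit2, Ifit3, Gbp3, Isg15, Usp18 and Nlrc5, and Oas1a and Ciita could not be fitted at the filter used.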
